A study of Homo sapiens with 4 samples.

Results

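Integrins are adhesion receptors made of an alpha and a beta subunit that reach the cell surface as a heterodimer, so the transcripts of both partners bear on which receptors a cell can build. Integrin α5 (ITGA5) pairs with β1 to bind fibronectin, β3 (ITGB3) pairs with αV or αIIb to bind vitronectin and fibrinogen, and αM (ITGAM, CD11b) pairs with β2 (ITGB2, CD18) on leukocytes. The immunoglobulin-family proteins ICAM1, ICAM3 and VCAM1 are integrin ligands on the opposing cell: ICAM1 and ICAM3 bind β2 integrins and VCAM1 binds α4 integrins. ICAM1 and VCAM1 are textbook NF-kB targets of activated endothelium, whereas ICAM3 is known mainly from resting leukocytes.

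These 7 genes were followed in RCC4 cells, a human clear cell renal carcinoma line labelled as epithelial. They were named by symbol, and all 7 were found among the 1176 genes of the deposited tables. The libraries compared cells infected with a lentivirus carrying a hairpin against MIRE (shMIRE, labelled as MIRE knockdown, n = 2) and cells infected with a control hairpin lentivirus (shControl, labelled as WT, n = 2), all harvested on day 3. The labels name 1 hairpin for each group and give no identifier for MIRE, whose own level was not analysed here. The labels do not say whether replicates were infected separately, so the spread between replicates may be technical.

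The values are whole numbers per gene that look like read counts already scaled between libraries. The tables hold genes that differ by about 2-fold or more between the groups, and the 7 genes were chosen on that difference between group means, so their differences are given as a description. Calls by limma are printed only beside the share of all listed genes called, or where a gene missed the call or lost it under an alternative, and support nothing, since the listing itself made a call likely. The same holds for the other listed genes. The listed values summed to 2043204 and 2002994 in the shMIRE libraries and to 2476944 and 2514039 in the shControl libraries. Totals over whole libraries were not used here, so the depth is unknown. Of 17 markers of renal carcinoma and tubule epithelium, 2 were listed, MIOX (higher) and LRP2 (lower, at 0 in both shMIRE libraries). Both lost their limma call when either shMIRE library was left out, and LRP2 also with quantile normalisation (adjusted p = 0.178). KRT8, KRT18 and PAX8 were not analysed here, so the cell type label could not be checked.

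Since 6 of the 7 genes differed in the same direction, the sequence at their transcript starts is shown first. RefSeq windows on GRCh38.p14, each running from 250 bases before a transcript start to 50 after it, were matched for 5 of the 7 genes (not ITGB2 and ITGB3). Of these, ICAM1 and VCAM1 are shown as the ligands that were higher in shMIRE, ICAM3 as the ligand that was lower, and ITGA5 as a receptor subunit that was higher. Capitals mark matches, on either strand, to 3 motifs in which N is any base. The first is GGNNNTTCC, a short form of the NF-kB site. The second, for AP-1, is TGANTCA. The TATA box was searched as TATAAA. The motifs were chosen after the windows had been read.
ICAM1 (chr19:10270870-10271169, plus strand): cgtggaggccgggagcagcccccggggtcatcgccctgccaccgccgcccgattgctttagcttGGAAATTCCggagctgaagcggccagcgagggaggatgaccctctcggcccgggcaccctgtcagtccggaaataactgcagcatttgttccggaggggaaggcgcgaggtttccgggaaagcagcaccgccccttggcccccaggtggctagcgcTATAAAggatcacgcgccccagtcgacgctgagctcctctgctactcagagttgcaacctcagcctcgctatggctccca
VCAM1 (chr1:100719492-100719791, plus strand): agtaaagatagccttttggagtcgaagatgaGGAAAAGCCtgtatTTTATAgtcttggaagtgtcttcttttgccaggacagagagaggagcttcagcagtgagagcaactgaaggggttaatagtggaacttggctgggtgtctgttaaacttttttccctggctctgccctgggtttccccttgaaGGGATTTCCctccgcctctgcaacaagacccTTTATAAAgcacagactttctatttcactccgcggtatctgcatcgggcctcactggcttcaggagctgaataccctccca
ICAM3 (chr19:10339575-10339874, minus strand): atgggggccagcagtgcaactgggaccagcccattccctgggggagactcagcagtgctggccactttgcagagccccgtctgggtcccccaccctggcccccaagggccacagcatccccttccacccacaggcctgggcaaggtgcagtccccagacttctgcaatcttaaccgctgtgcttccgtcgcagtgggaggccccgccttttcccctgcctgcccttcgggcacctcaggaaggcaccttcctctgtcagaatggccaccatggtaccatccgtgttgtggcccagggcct
ITGA5 (chr12:54419217-54419516, minus strand): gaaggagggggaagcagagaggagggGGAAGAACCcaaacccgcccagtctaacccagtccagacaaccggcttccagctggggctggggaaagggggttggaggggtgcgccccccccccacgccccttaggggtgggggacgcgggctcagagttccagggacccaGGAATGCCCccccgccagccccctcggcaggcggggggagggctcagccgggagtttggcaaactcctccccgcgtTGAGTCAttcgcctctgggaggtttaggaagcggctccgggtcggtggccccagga

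In the ICAM1 window the NF-kB form was matched at 1 place, GGAAATTCC, from 186 to 178 bases before the start, and it reads as a match on both strands. VCAM1 held GGGATTTCC from 62 to 54 bases before the start and a minus-strand match, GGAAAAGCC, from 219 to 211 bases before it. ITGA5 held 2 minus-strand matches and an AP-1 match, TGAGTCA, that ends on the start itself. The ICAM3 window shown held 0 matches to the 3 motifs, as did the ITGAM window. ICAM3 has 3 windows, and the third, at a start further into the gene, held 1 minus-strand match to the NF-kB form.

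In all, 4 of the 7 windows of these genes held the NF-kB form, against 20.1% of all 35116 windows and 20.7% of the 1338 windows of listed genes. A TATA box match was present in 2 of the 7, ICAM1 and VCAM1, against 11.5% of all windows and 8.89% of those of listed genes. In VCAM1 matches on opposite strands overlap. AP-1 was matched in 1 of the 7, against 7.71% of all windows and 7.77% of those of listed genes. The windows with the NF-kB form were those of ICAM1, VCAM1 and ITGA5 and the third of ICAM3, the gene that was lower. The motifs were chosen after the windows had been read, so these counts are a description and no test against the shares. A match is a run of letters and not a measured binding site, and an unmarked stretch may hold a site that the short form misses.

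**Figure D1:**
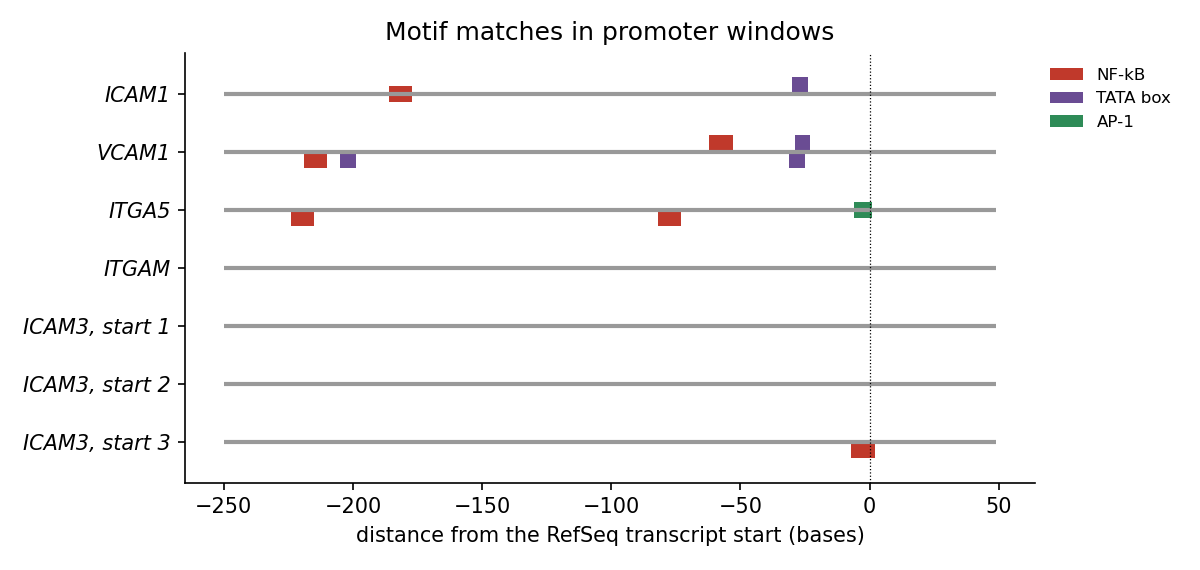
Matches to the NF-kB form, AP-1 and TATA box motifs in the promoter windows of 5 genes, by distance in bases from the RefSeq transcript start (dotted line). Boxes above a line are matches on the gene's strand, boxes below it on the other strand, and boxes on it on both. ICAM1, VCAM1 and ITGA5 carry matches to the NF-kB form upstream of the start, and the ITGAM window and the first 2 ICAM3 windows carry 0 matches.

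Of the 7 genes, 6 had higher values in shMIRE than in shControl cells and 1, ICAM3, had lower values. With limma, 7 of 7 were called at an adjusted p under 0.05, and 97.5% of all 1176 listed genes were (38.5% higher, 59.0% lower), so that count says nothing particular about them. The groups did not overlap in any of the 7 genes, nor in 99.0% of listed genes. The median log2 fold change of the 7 was 1.41, and that of all listed genes was -1.16, since 60.6% of listed genes had a lower mean in shMIRE. In bulk RNA, fewer cells of a type and less RNA per cell cannot be told apart.

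**Figure D2:**
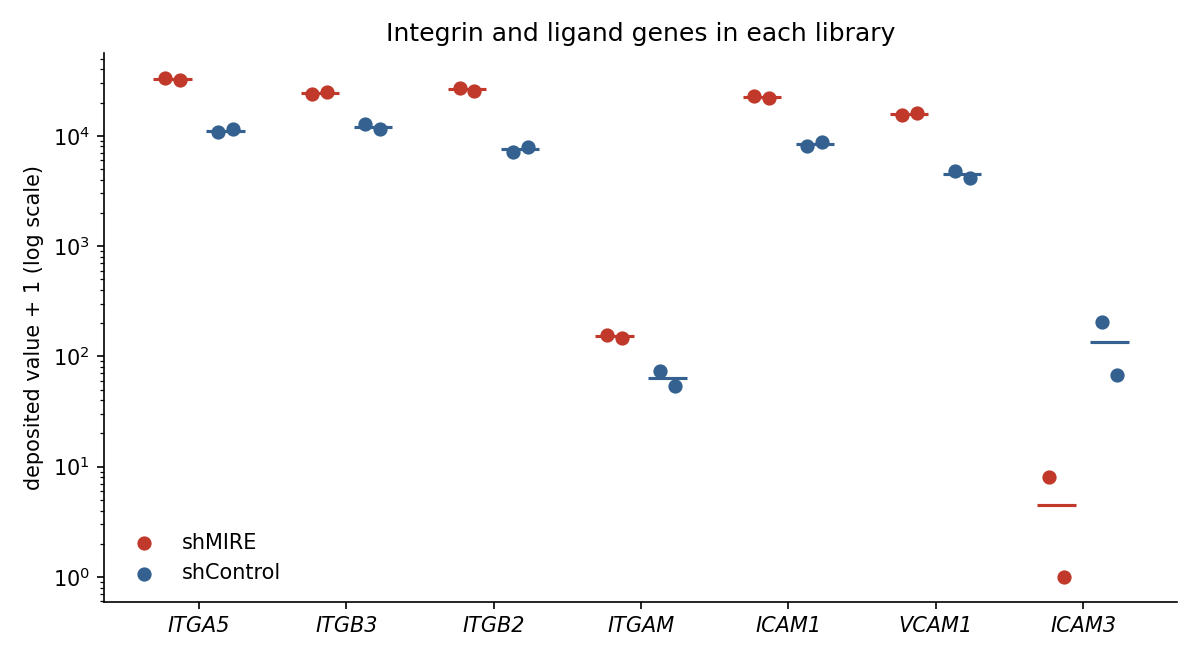
Deposited value plus 1, on a log axis, of each of the 7 genes in each library, with shMIRE to the left of shControl. Points are libraries and bars are group means (n = 2 each). Each gene except ICAM3 sits higher in shMIRE, and ITGAM and ICAM3 lie orders of magnitude below the other 5.

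ITGA5 (ENSG00000161638, chromosome 12, 54395261 to 54419460, minus strand, hg38), the fibronectin receptor subunit, had deposited values of 33394 and 31883 in the shMIRE libraries, against 10786 and 11424 in the shControl libraries. Both shMIRE libraries lay above both shControl libraries, a separation made likely by choosing the gene on the difference between group means. The mean was 32638 ± 1068 in shMIRE and 11105 ± 451 in shControl (SD, n = 2 each), a 2.94-fold difference and a log2 fold change of 1.56 (SE 0.07). Its usual partner β1 was not analysed here.

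ITGB3 (ENSG00000259207, chromosome 17, 47253846 to 47311816, plus strand), the β3 subunit of the vitronectin receptor, had 23792 and 25058 in shMIRE, against 12727 and 11446 in shControl. The difference of 2.02-fold (log2 fold change 1.02, SE 0.08) was the smallest of the 7, and by size it ranked 447 of the 463 genes that were higher in shMIRE. GENCODE 29 annotates another protein-coding gene, AC068234.1, on the same strand over 51.6% of the exon bases of ITGB3, so the division of reads between both genes is uncertain.

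ITGB2 (ENSG00000160255, chromosome 21, 44885953 to 44931989, minus strand), the β2 subunit shared by the leukocyte integrins, had 27107 and 25573 in shMIRE, against 7177 and 7973 in shControl. These values do not overlap, as was so for 99.0% of listed genes. The means were 26340 ± 1085 and 7575 ± 563 (SD, n = 2 each) in shMIRE and shControl cells, 3.48-fold apart with a log2 fold change of 1.80 (SE 0.08). An antisense gene, ITGB2-AS1, covers 4.46% of its exon bases.

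ITGAM (ENSG00000169896, chromosome 16, 31259967 to 31332892, plus strand), the αM partner of β2, was low: 155 and 146 in shMIRE, against 73 and 53 in shControl. The groups were separate, though the shControl libraries differed from each other by a larger share than those of the higher genes did. The fold of 2.39 (log2 fold change 1.26, SE 0.29) therefore carries the widest error of the 6 higher genes, and its limma call was lost in 3 of the 4 fits that left out a library (adjusted p of 0.0871 without shMIRE replicate 1, 0.0767 without shMIRE replicate 2 and 0.0804 without shControl replicate 2).

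ITGAM and ITGB2 are genes of leukocytes, so other leukocyte markers are given beside them. Of 18 such markers, 1 was listed, CD33, a receptor of myeloid cells, at 22 and 27 in shMIRE and at 0 in both shControl libraries. The other 17, among them PTPRC, CD14 and the β2 partners ITGAL and ITGAX, were not analysed here, and the part of leukocyte RNA in the ITGB2 and ITGAM differences was not tested.

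Among the ligands, ICAM1 (ENSG00000090339, chromosome 19, 10270835 to 10286615, plus strand), which binds β2 integrins, had 22737 and 21784 in shMIRE, against 8115 and 8698 in shControl. VCAM1 (ENSG00000162692, chromosome 1, 100719742 to 100739045, plus strand), the α4 integrin ligand, had 15320 and 16165 in shMIRE, against 4832 and 4168 in shControl. Both ligands were higher in each shMIRE library than in either shControl library. The log2 fold change was 1.41 (SE 0.07) for ICAM1, 2.65-fold, and 1.81 (SE 0.09) for VCAM1, 3.50-fold. Antisense genes overlap ICAM1, the longer overlap covering 22.0% of its exon bases.

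ICAM3 (ENSG00000076662, chromosome 19, 10333776 to 10339823, minus strand), a β2 ligand of leukocytes, went the other way: it was listed at 7 and 0 in shMIRE, against 203 and 67 in shControl. Both shMIRE values were below both shControl values, but the shControl values were themselves far apart. The log2 fold change was -5.38 (SE 1.15), the third largest fall of 713 on the log2(value + 1) scale, a scale on which values near 0 weigh heavily. The limma call was lost without shMIRE replicate 2 (adjusted p = 0.0695, log2 fold change -3.88) and without shControl replicate 1 (0.151, -4.59) or 2 (0.103, -6.17). An antisense gene, AC114271.1, covers 71.2% of the ICAM3 exon bases, and whether counting was by strand is not given in the sources used here, so the value of ICAM3 may hold reads of either gene.

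ICAM1 and ICAM3 lie 47.2 kb apart on chromosome 19 and are transcribed from opposite strands. Between them GENCODE 29 places ICAM4 and ICAM5, of the same ligand family, and ZGLP1, FDX2 and RAVER1, none of which were analysed here. Within 250 kb of ICAM1 the tables also list the read-through gene PPAN-P2RY11 (5887 and 3343 in shMIRE, against 2270 and 1588 in shControl). Within 250 kb of ICAM3 they list in addition ATG4D, an autophagy protease gene (543 and 617 in shMIRE, against 995 and 1386 in shControl), and AP1M2, a clathrin adaptor subunit gene (1592 and 1749 in shMIRE, against 4561 and 4701 in shControl). Listed genes of this stretch thus differed in both directions. ITGAM has PRSS36 at 109.9 kb and VCAM1 has SLC30A7 at 157.0 kb, both higher in shMIRE.

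To set the genes against each other, values were divided by the length of all annotated exons of a gene, merged. On this scale of deposited value per kilobase, ICAM1 was highest in shMIRE cells at 6007 ± 182, followed by ITGB3 at 5559 ± 204, ITGA5 at 4308 ± 141, ITGB2 at 3875 ± 160 and VCAM1 at 2602 ± 98.8 (SD, n = 2). ITGAM at 26.5 ± 1.12 and ICAM3 at 2.37 and 0 stood far below. In shControl cells the order was ITGB3 (2751 ± 206), ICAM1 (2268 ± 111), ITGA5 (1466 ± 59.5), ITGB2 (1114 ± 82.8), VCAM1 (744 ± 77.6), ICAM3 (68.8 and 22.7) and ITGAM (11.1 ± 2.49). Neighbours in these orders did not overlap between libraries. The place of ITGB3 also rests on the uncertain division of reads with AC068234.1.

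The order among the 5 high genes depended on the length used. Per kilobase of the longest coding transcript, ITGB2 came first in shMIRE (8288 ± 341), and ICAM1, ITGA5 and ITGB2 overlapped in shControl. Per kilobase of coding sequence, ITGA5, ITGB2 and ITGB3 overlapped in shMIRE, and ICAM1 and ITGB3 did in shControl. With each of the 3 lengths VCAM1 came after the other 4 of these, and ITGAM and ICAM3 exchanged the last places between the groups. Ranked per kilobase of merged exons among the 1174 listed genes with a length, ICAM1 was at 6 in shMIRE and 55 in shControl. VCAM1 was at 32 in shMIRE and 183 in shControl. Most listed genes had a lower mean in shMIRE, so these ranks also move with the falls of other genes.

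The subunits of the αMβ2 receptor differed widely in level. Per kilobase of merged exons, ITGB2 was 146 and 147 times as high as ITGAM in the shMIRE libraries, against 82.3 and 126 times in the shControl libraries. Another length moved this to 261 (longest coding transcript) and 243 (coding sequence) in shMIRE, against 186 and 173 in shControl. ITGB2 exceeded ITGAM in each library with each length. The other α partners of β2 were not analysed here.

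The β3 subunit and its αV partner moved in opposite directions. ITGAV (ENSG00000138448, chromosome 2, 186590065 to 186680901, plus strand), the αV subunit of the vitronectin receptor, had 2528 and 2612 in shMIRE, against 6533 and 5344 in shControl, a log2 fold change of -1.20 (SE 0.11). ITGAV was thus lower in both shMIRE libraries, while ITGB3 was higher in both. Per kilobase, ITGB3 stood at 17.6 and 17.9 times ITGAV in shMIRE, against 3.64 and 4.0 times in shControl. The ratio was thus 4.65 times as high in shMIRE, a figure that does not depend on the lengths. The division of reads between ITGB3 and the overlapping AC068234.1 is uncertain, so these ratios are too. ITGA5, the other RGD-binding α subunit listed, was 14.3 and 13.2 times ITGAV per kilobase in shMIRE, against 1.79 and 2.32 times in shControl.

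Of the αMβ2 subunits, ITGB2 was near the ligand ICAM1 in level and ITGAM was far below it. Per kilobase of merged exons, ICAM1 was 225 and 229 times ITGAM in shMIRE, against 171 and 252 times in shControl, ranges that overlap. Per kilobase of merged exons, ICAM1 was 1.54 and 1.56 times ITGB2 in shMIRE, against 2.07 and 2.0 times in shControl. Which of them was higher turned with the length: per kilobase of the longest coding transcript, ICAM1 was 0.820 and 0.832 times ITGB2 in shMIRE, against 1.10 and 1.07 times in shControl. VCAM1 was 0.413 and 0.455 times ICAM1 per kilobase of merged exons in shMIRE, against 0.365 and 0.294 times in shControl, so it was the lower ligand in each library. Of the VCAM1 receptor, the α4 subunit gene ITGA4 was listed at 0 in both shMIRE libraries and at 22 and 0 in shControl, which limma did not call (adjusted p = 0.197).

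**Figure D3:**
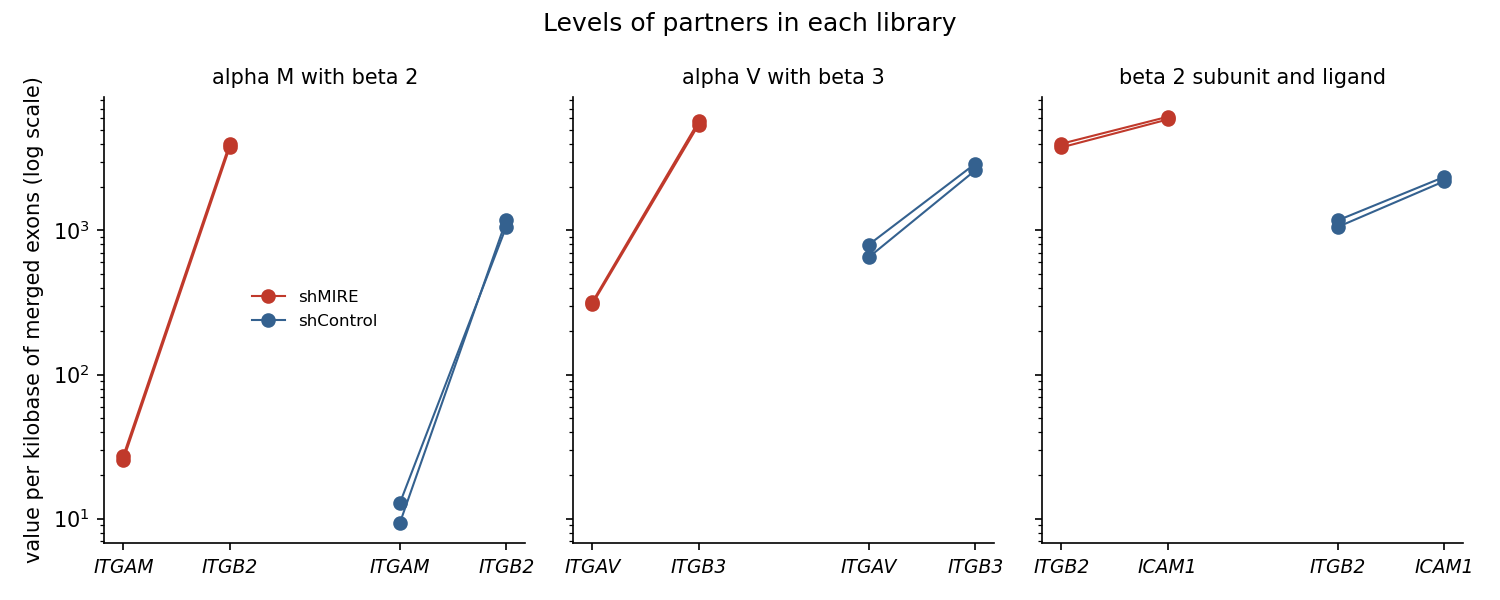
Deposited value per kilobase of merged exons, on a log axis, for ITGAM with ITGB2, ITGAV with ITGB3, and ITGB2 with its ligand ICAM1. Each line joins the 2 genes in 1 library, with shMIRE to the left of shControl (n = 2 each). ITGB2 stands far above ITGAM in each library, and the gap between ITGAV and ITGB3 is wider in shMIRE (17.6 and 17.9 times) than in shControl (3.64 and 4.0 times).

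Of the 26 integrin subunits, 7 were listed: 5 rose, 1 fell (ITGAV) and 1 was not called (ITGA4). Their median log2 fold change was 1.26, against -1.16 over all listed genes, of which 38.5% were called higher. The rises include ITGA5, ITGB3, ITGB2 and ITGAM, chosen on this difference, so the counts and the median say nothing of the family. Besides the genes above, ITGA2, the collagen receptor α2 subunit, rose to 1536 and 1812 in shMIRE, against 792 and 602 in shControl (log2 fold change 1.27, SE 0.17), and its limma call was lost without shMIRE replicate 2 (adjusted p = 0.0557). Of 13 immunoglobulin-family ligands of integrins, 5 were listed, 2 rose and 3 fell (median log2 fold change -1.14), against 38.5% higher and 59.0% lower among all listed genes. Among them ICAM1, VCAM1 and ICAM3 were chosen on the same difference. Besides ICAM3, those that fell were L1CAM, a neural adhesion molecule (70 and 83 in shMIRE, against 157 and 183 in shControl), and MADCAM1, the mucosal ligand of α4β7 (51 and 40 in shMIRE, against 91 and 132 in shControl). Without single libraries, limma did not call L1CAM (adjusted p = 0.0758 and 0.104 without shControl replicate 1 or 2, 0.0625 without shMIRE replicate 1) or MADCAM1 (0.0693 and 0.130 without shControl replicate 1 or 2, 0.0796 and 0.117 without shMIRE replicate 1 or 2). The 2 ligands that rose were thus the high ones, ICAM1 and VCAM1, and the 3 that fell were low in each library.

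Ligands from the matrix and serum were listed in 8 cases of 43, of which 5 rose and 3 fell (median log2 fold change 1.10, against -1.16 over all listed genes, of which 38.5% were called higher and 59.0% lower). C3, whose cleaved form is bound by αMβ2, averaged 15370 ± 1592 in shMIRE and 7633 ± 201 in shControl (SD, n = 2 each), 2.01-fold higher. CCN2, a matricellular protein that integrins bind, rose 2.27-fold and the collagen gene COL1A1 rose 3.33-fold. EDIL3, an RGD protein bound by αVβ3, fell to 3443 and 3552 in shMIRE, against 11746 and 10854 in shControl (3.23-fold). Of the subunit genes of that receptor, ITGAV fell too and ITGB3 rose 2.02-fold.

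Of 43 integrin adaptors and signalling genes, which link the receptors to the cytoskeleton and to kinases, 3 were listed and 3 fell (median log2 fold change -2.38), where 59.0% of all listed genes were called lower. TNS1, tensin 1 of focal adhesions, fell to 2747 and 2750 in shMIRE, against 12585 and 12609 in shControl (4.58-fold). LIMS2 fell 5.42-fold and the filamin gene FLNC 5.03-fold, both at low levels. The limma call of FLNC was lost without shControl replicate 1 or 2 (adjusted p = 0.256 and 0.222), without shMIRE replicate 1 (0.0551), with quantile normalisation (0.0517) and without the intensity trend (0.0630). Of 8 linkers of ICAM and VCAM tails, 1 was listed, RDX (radixin), which fell 3.18-fold. Talin, kindlin and vinculin genes were not analysed here.

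Other adhesion receptors were listed in 3 cases of 19, all at low values, with CEACAM1 higher and NCAM1 and MCAM lower. The limma call of CEACAM1 was lost without shControl replicate 2 (adjusted p = 0.0588) and that of NCAM1 without shMIRE replicate 1 or 2 (0.0722 and 0.0576). Since ICAM1 and VCAM1 are also genes of activated endothelium, and integrins of fibroblasts, those markers are given too. Of 14 endothelial markers, 2 were listed: ROBO4 rose to 241 in each shMIRE library, against 40 and 48 in shControl, and FLT1 was listed at 0 in both shMIRE libraries, against 3 and 11 in shControl. Of 14 fibroblast markers, 4 were listed, 3 rose (COL1A1, COL6A3 and COL5A1) and PDPN fell, with sums of 5185 and 4886 in shMIRE, against 1527 and 1632 in shControl. Most of each sum was COL1A1 alone (4407 and 4095 in shMIRE, against 1261 and 1290 in shControl). Beside the counts of these receptors and markers, 38.5% of all listed genes were called higher and 59.0% lower. Without single libraries, limma did not call FLT1 (adjusted p = 0.112 and 0.109 without shMIRE replicate 1 or 2; after quantile normalisation 0.538), COL5A1 (0.0574 and 0.0570 in the same fits) or PDPN (0.0501 to 0.354 without each library in turn, 0.195 with quantile normalisation, 0.0502 with equal sums, 0.0932 without the intensity trend and 0.0935 with a pseudocount of 0.1). The part of other cell types in the differences of the 7 genes was not tested.

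**Figure D4:**
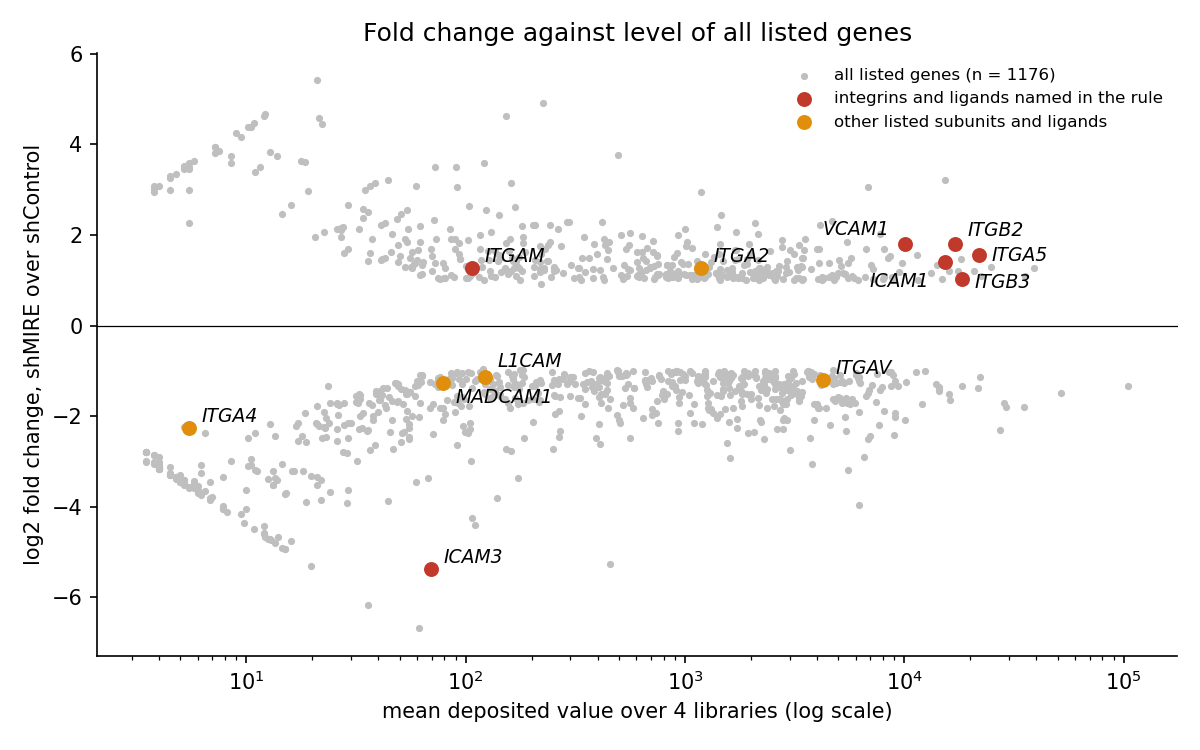
Log2 fold change, shMIRE over shControl, against the mean deposited value over 4 libraries on a log axis, for all 1176 listed genes (grey), the 7 genes named at the outset (red) and the other listed subunits and immunoglobulin-family ligands (orange). ITGA5, ITGB3, ITGB2, ICAM1 and VCAM1 lie at the high end of the level axis among genes that are higher in shMIRE, and ICAM3 lies near the lower edge at -5.38.

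By size of log2 fold change among the 463 listed genes that were higher in shMIRE, VCAM1 ranked 130, ITGB2 133, ITGA5 183, ICAM1 231 and ITGAM 289. The median of those genes was 1.40. VCAM1, ITGB2 and ITGA5 lay above it, ICAM1 close to it and ITGAM below it, with ITGB3 near the bottom.

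The listed genes with the profile most like each gene were found by Euclidean distance between log2(value + 1) profiles, centred on their mean over the 4 libraries. With 4 libraries in 2 groups such profiles differ mostly in size of fold, and likeness says nothing of function. ITGA5 was nearest to C1QTNF6 (distance 0.084) and CSF1 (0.086), and ITGB3 to GPR180 (0.033) and DOCK9 (0.040). ITGB2 was nearest to PDCD1LG2 (0.092) and COL1A1 (0.107), and ITGAM to BIRC3 (0.047) and SLC17A1 (0.093). ICAM1 was nearest to HS3ST3B1 (0.046) and SHANK1 (0.064), and VCAM1 to YOD1 (0.101) and NTM (0.130). ICAM3 had no close match: its nearest genes, RPL36A-HNRNPH2 and ACSBG1, lay at 1.03 and 2.22.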

How the data were processed

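Polyadenylated RNA of 4 RCC4 libraries (2 shMIRE, 2 shControl, day 3) was sequenced from TruSeq libraries, per the labels' protocols. The submitters' processing notes name build hg38, DESeq2 1.20.0, featureCounts 1.5.0-p3 and HISAT2 2.0.5, without saying what each did. The authors deposited 1 whole number per gene and library for 1176 genes, handled as a score: values look scaled (median ratio of replicate 2 to 1 of 0.995 in shMIRE and 1.01 in shControl) and are not used as raw counts. The scaling and the rule by which genes were listed are not stated in the sources used here.

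Symbols were matched for 1175 genes, and GENCODE 29 (GRCh38) held 1174, with 1-based coordinates. Groups were compared with limma 3.58.1 (R 4.3.3, intensity trend, no covariates) on log2(value + 1) for genes with a mean above 1 (1176 of 1176), with Benjamini-Hochberg adjustment over all of them and calls at 0.05. Folds are ratios of group means. The fit was tested on simulated data in which most genes were unchanged, which does not show how it performs on genes listed for a difference. All 7 genes, every listed integrin subunit and immunoglobulin-family ligand, and up to 4 listed genes with the highest mean of each other list are named. The genes and lists were chosen with earlier results of these data known. Alternatives were another scaling, pseudocount, filter, trend, threshold and gene length, the replicate number as a block, and each library left out.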

Additional observations from a re-analysis of the deposited data

How the results depend on the processing

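The 7 genes kept their direction under every alternative run, most of which could not have changed it. Only another scaling could have reversed a direction, since the groups did not overlap in any of the 7. They were also chosen on this difference, so the kept direction supports nothing. The number of listed genes called by limma (1147) was 1104 without the intensity trend, 1000 with quantile normalisation, 1124 after scaling each library to the same listed sum, 1116 with a pseudocount of 0.1, 1116 with a mean above 5, 1147 with no filter, and 920 when the threshold was 0.01. Leaving out each library in turn gave 826 to 897 calls, on the assumption that the remaining library of that group varies as the intact group does. Of the 7 genes, 7 were called under each of these, except that 5 to 6 were called with 1 library left out. The median log2 fold change over the table shifted upward by 0.32 (quantile) and by 0.30 (equal sums). With equal sums the log2 fold change of ITGB3 was 1.32 and that of ICAM3 -5.17, and over the alternatives that kept all libraries ICAM3 ranged from -7.11 (pseudocount of 0.1) to -4.34. A filter at a mean of at least 100, chosen after the data were seen, removed ICAM3 and called 6 of the remaining 6. In a fit with a replicate block, 1175 genes and 7 of the 7 were called. Libraries with the same number shared little deviation from their group means (correlation over genes 0.0321), and the numbers were not treated as a pairing. Per kilobase of the longest coding transcript and of coding sequence, in this order, ITGB2 was 261 and 243 times ITGAM in shMIRE (146 with merged exons) and 186 and 173 times in shControl (104), and ITGB3 was 16.7 and 12.6 times ITGAV in shMIRE (17.8) and 3.6 and 2.7 times in shControl (3.82). These shifts follow from the lengths alone. Of the 14 nearest genes, 13 were the same with equal sums. Scaling a library shifts the log2 values of all but low genes almost alike, so this agreement was built in and supports nothing. Library totals are unknown, so limits set by depth cannot be given.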
